A study of Mus musculus with 27 samples.

Results

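The 40 genes described here encode proteins of mitosis: the kinases and phosphatases that start it, the kinetochore and its checkpoint, the motors and crosslinkers of the spindle, the cytokinesis machinery and the proteins that trigger anaphase. They were chosen by symbol, for what their products do, from a count table of 55483 mouse genes. All 40 were found, and all 40 passed the filter on low counts in every comparison. The libraries came from RAW264.7 cells, a single transformed mouse macrophage line that divides in culture. About 30 M cells per library were kept for 6 h in DMSO alone, in LPS at 1 µg/ml with DMSO, or in LPS at 1 µg/ml with TM7nox at 10 µM. LPS, a lipopolysaccharide of bacterial cell walls, activates macrophages. TM7nox is a tanshinone mimic, a class of small molecules made to interfere with the binding of HuR to RNA. HuR, the product of Elavl1, is known to bind mRNA at stretches rich in U or in A and U. Total RNA and RNA recovered with an anti-HuR antibody (ribonucleoprotein immunoprecipitation, RIP) were each sequenced in 4 libraries per treatment. RNA recovered with control IgG was sequenced in 1 library per treatment, all of replicate 3. Nothing in the labels says that the replicates were separate cultures, so the p-values measure the spread between these libraries.

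Mitosis divides copied chromosomes between daughter cells. Cdk1 with its cyclin, released from inhibition by Cdc25 phosphatases and helped by the Polo and Aurora kinases, starts it, and the spindle then captures chromosomes at their kinetochores. The spindle checkpoint holds the anaphase-promoting complex in check until every kinetochore is attached, after which securin is destroyed and separase cuts the cohesin rings. Most of these genes are transcribed in late G2 under the DREAM, B-Myb and FoxM1 complexes, whose promoters typically carry CCAAT boxes and a cell cycle genes homology region (CHR). Their mRNA level in a population generally follows how many cells are near division, and LPS is known to slow the division of macrophages. In a bulk sample, fewer cells of a type and less RNA per cell cannot be told apart.

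The promoters of 5 members are shown because these genes bracket the responses described below. In total RNA, Espl1 had the largest fall with LPS, Plk1 the largest with TM7nox, and Cdk1 the smallest called fall with LPS. Ube2c had the second strongest recovery with anti-HuR over total RNA, and Pttg1 the only positive value with LPS. Each window runs from 250 bases before to 50 bases after the start site, is read 5′ to 3′ on the gene's strand, and comes from RefSeq on GRCm38.p6. Capitals mark CHR elements (TTTGAA or TTCGAA) and CCAAT boxes on either strand.
Espl1, chr15:102296043-102296342, plus strand: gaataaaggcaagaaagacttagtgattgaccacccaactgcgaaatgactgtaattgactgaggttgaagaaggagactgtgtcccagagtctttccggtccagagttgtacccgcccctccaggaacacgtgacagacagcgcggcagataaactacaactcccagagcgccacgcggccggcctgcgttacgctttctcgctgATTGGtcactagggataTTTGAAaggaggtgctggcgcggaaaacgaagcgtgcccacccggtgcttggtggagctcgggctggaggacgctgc
Plk1, chr7:122159185-122159484, plus strand: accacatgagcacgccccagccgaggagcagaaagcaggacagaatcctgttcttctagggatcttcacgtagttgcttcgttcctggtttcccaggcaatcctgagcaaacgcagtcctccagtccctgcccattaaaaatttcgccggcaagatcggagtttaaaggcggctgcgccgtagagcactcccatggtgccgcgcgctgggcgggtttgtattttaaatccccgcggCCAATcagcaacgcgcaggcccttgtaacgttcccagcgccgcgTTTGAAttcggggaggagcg
Ube2c, chr2:164769679-164769978, plus strand: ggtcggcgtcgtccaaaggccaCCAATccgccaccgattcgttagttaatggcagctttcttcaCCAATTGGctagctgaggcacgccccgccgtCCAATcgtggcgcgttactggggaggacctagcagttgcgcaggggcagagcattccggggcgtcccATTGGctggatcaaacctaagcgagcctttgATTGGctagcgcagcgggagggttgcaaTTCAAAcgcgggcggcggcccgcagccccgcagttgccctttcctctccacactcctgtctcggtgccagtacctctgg
Cdk1, chr10:69352863-69353162, minus strand: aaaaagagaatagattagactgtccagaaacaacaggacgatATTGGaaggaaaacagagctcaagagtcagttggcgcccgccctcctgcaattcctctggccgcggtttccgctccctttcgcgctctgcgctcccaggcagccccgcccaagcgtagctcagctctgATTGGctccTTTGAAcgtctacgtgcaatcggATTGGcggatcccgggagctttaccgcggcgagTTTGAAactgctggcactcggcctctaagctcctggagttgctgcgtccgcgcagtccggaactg
Pttg1, chr11:43425932-43426231, minus strand: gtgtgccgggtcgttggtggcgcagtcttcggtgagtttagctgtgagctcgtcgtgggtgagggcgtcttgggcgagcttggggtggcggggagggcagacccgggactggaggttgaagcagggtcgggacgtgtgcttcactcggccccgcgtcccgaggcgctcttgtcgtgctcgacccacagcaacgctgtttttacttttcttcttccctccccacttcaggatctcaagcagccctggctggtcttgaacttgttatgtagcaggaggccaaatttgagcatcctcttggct
A RefSeq window was matched by symbol for 34 of the 40 members and for 27025 genes in all. Where a gene had several windows, as 3 members did, only the first listed was used. Of the 34 members, 28 (82.4%) held a CHR element and 27 (79.4%) a CCAAT box, and 25 (73.5%) held both. Among all 27025 promoters the shares were 19.4%, 37.9% and 7.7%. In the 150 bases before the start site alone, 10 members (29.4%) held a CHR element against 9.9% of all promoters, and 26 (76.5%) a CCAAT box against 25.3%. The CHR element of Plk1 began 31 bases after the start, outside the shorter window, and those of Espl1 and Ube2c began at positions -27 and -29, inside it. The windows of Pttg1, Birc5, Mad2l1 and Nuf2 held neither element. A match describes letters, not binding.

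The libraries differed in depth, from 2.73 M counts in RNA DMSO replicate 1 to 41.4 M, with 16.3 to 28.3 M in the other RNA libraries, 19.8 to 41.4 M in the RIP libraries and 8.87 to 24.5 M in the IgG libraries. All 8 macrophage markers were at 1 CPM or more in each assay, with a summed level of 2537 to 5923 CPM in the RNA libraries. The markers of T cells, B cells, NK cells, epithelium and fibroblasts summed to at most 0.34 CPM in any RNA library, and those of endothelium to at most 2.75 CPM.

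In total RNA, the members as a group fell sharply with LPS and stood lower again with TM7nox. They took 0.545% ± 0.0854 (SD, n = 4) of all counts in DMSO, 0.171% ± 0.0648 in LPS and 0.11% ± 0.041 in LPS+TM7nox. By library, the summed level was 3286 to 3874 CPM in DMSO, 934 to 1885 CPM in LPS and 608 to 1221 CPM in LPS+TM7nox. CPM are counts relative to the scaled library sizes, on a common scale for all 27 libraries, and values by library are given in the order of replicates 1, 2, 3 and 4. The DMSO libraries lay above all others, while the LPS and LPS+TM7nox ranges overlapped. The mean level ran in the order DMSO, LPS, LPS+TM7nox in 39 of the 40 members, the exception being Pttg1.

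**Figure D1:**
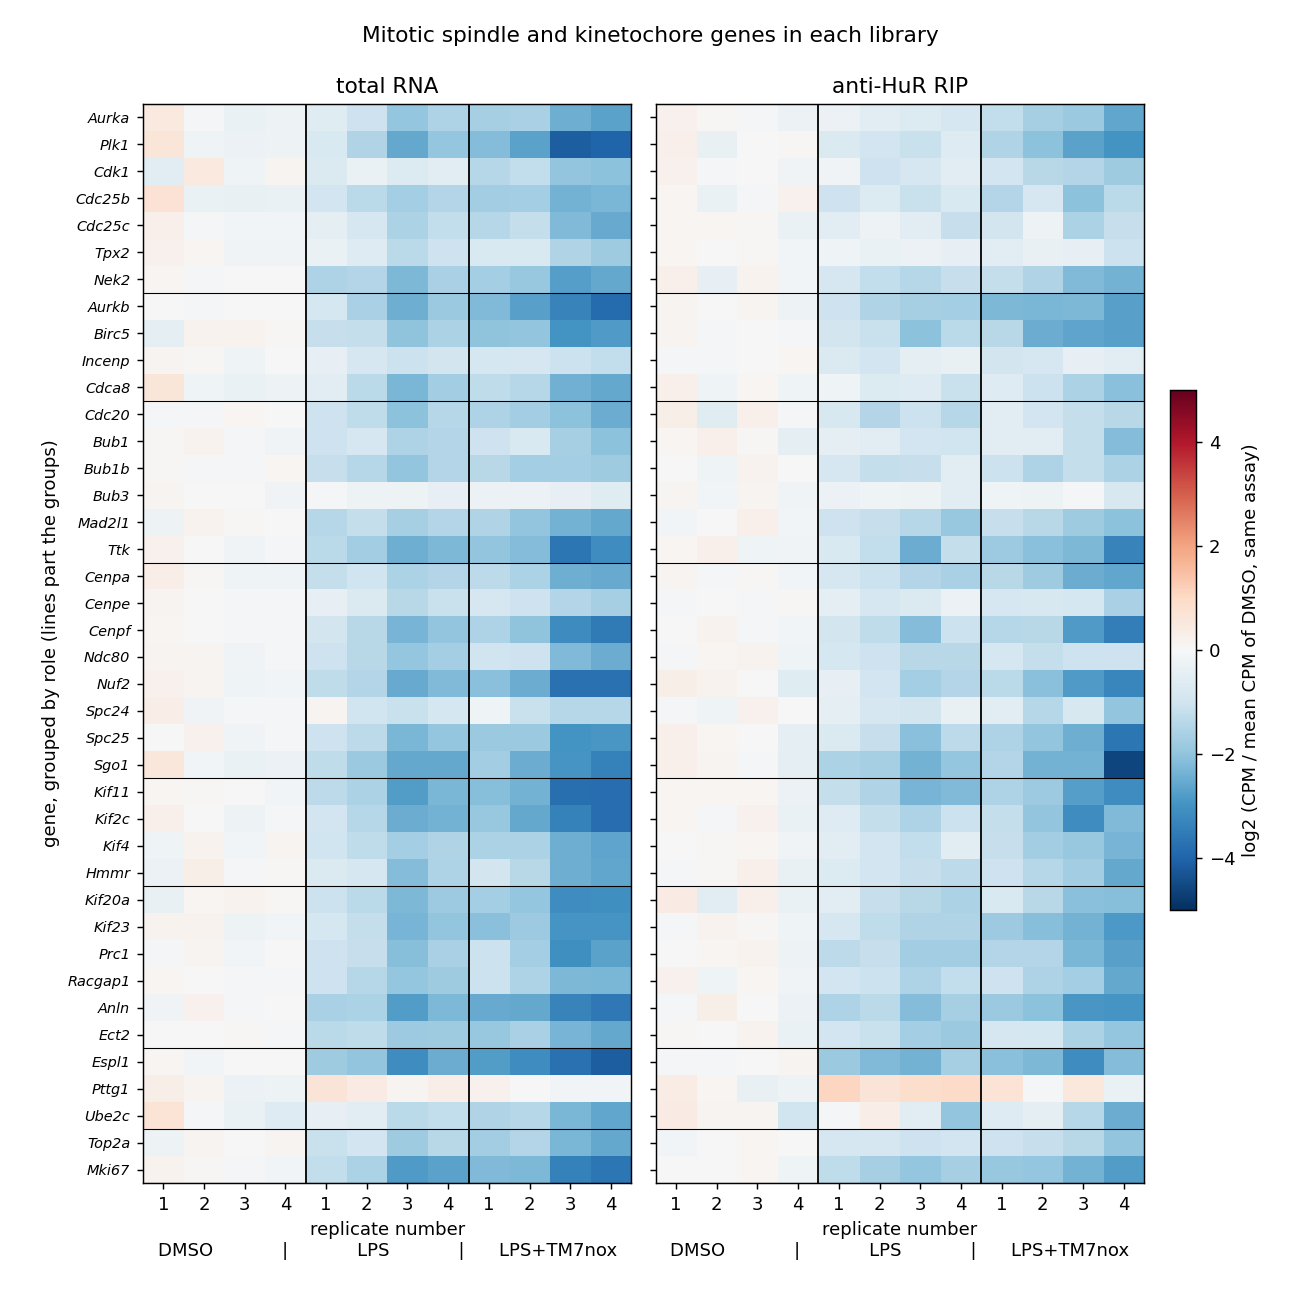
The heat map shows, for each of the 40 genes (rows, grouped by role) and each library (columns, by treatment and replicate), the log2 ratio of its CPM to the mean CPM of the 4 DMSO libraries of the same assay, with total RNA on the left and anti-HuR RIP on the right. In total RNA the 4 LPS and 4 LPS+TM7nox columns are below the DMSO level for nearly every gene, with Pttg1 and Bub3 standing out.

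LPS lowered the RNA of 36 of the 40 members and raised none. Among all 12369 genes tested, 21.7% were called lower and 20.2% higher, so the members' share was far from the background. Calls were made at an adjusted p (FDR) under 0.05 in edgeR's quasi-likelihood F test with Benjamini-Hochberg adjustment over all genes tested. The members' median log2 fold change was -1.47, against -0.04 for all genes, and the values ran from -2.28 for Espl1 to 0.37 for Pttg1. The 4 LPS and the 4 DMSO libraries did not overlap for 35 members, as for 38.7% of all genes. With the replicate number as a block all 40 were called, 39 lower and Pttg1 higher, where 27.2% of all genes were called lower and 25.2% higher. All 8 role groups had a negative median, from -0.87 for the 3 anaphase genes to -1.62 for the 2 genes of mitotic chromosomes. RNA DMSO replicate 1 was the shallowest library by far and 37 members were called without it, where 22.9% of all genes were called lower and 21.0% higher.

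The genes that start mitosis all fell with LPS, 7 of 7, with a median log2 fold change of -1.22. Plk1, the Polo-like kinase that acts at centrosomes and kinetochores, stood at 69.3, 39.6, 37.2 and 38.1 CPM in DMSO, 27, 16.2, 7.83 and 11.9 CPM in LPS and 10.3, 7.19, 2.66 and 2.89 CPM in LPS+TM7nox. Its DMSO libraries were all above its LPS libraries, and its log2 fold change was -1.57 (SE 0.443, adjusted p = 0.0107), or 2.97-fold lower. Aurka, the Aurora kinase of the spindle poles, stood at 95.8, 64.8, 53.9 and 57.1 CPM in DMSO, 44.6, 33.3, 17.8 and 23.5 CPM in LPS and 21.2, 21.8, 12.6 and 10.7 CPM in LPS+TM7nox. It was lower in all 4 LPS libraries than in any DMSO library, with a log2 fold change of -1.22 (SE 0.31, adjusted p = 0.00583). Cdk1, the kinase that drives entry into mitosis, stood at 42.2, 86.3, 52.9 and 67.5 CPM in DMSO, 37.5, 49.8, 38.6 and 43.5 CPM in LPS and 23.4, 26.5, 15.7 and 15 CPM in LPS+TM7nox. Its fall with LPS was the smallest of those called, -0.59 (SE 0.215, adjusted p = 0.0413), and the LPS and DMSO libraries overlapped. That call was held in 7 of 14 alternative settings, and leaving out LPS replicate 1, 3 or 4 or DMSO replicate 2 or 4 ended it. Cdc25b and Cdc25c, the phosphatases that activate Cdk1, had log2 fold changes of -1.36 (SE 0.274, adjusted p = 0.00112) and -0.98 (SE 0.305, adjusted p = 0.018), and the call for Cdc25c was lost without LPS replicate 3 or 4. Nek2, a kinase of centrosome separation, and Tpx2, which activates Aurka, had values of -1.72 and -0.82.

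The chromosomal passenger complex, which corrects faulty attachments of chromosomes and then moves to the spindle midzone, fell in all 4 of its members. Aurkb, its kinase, stood at 48.3, 45.7, 48.8 and 48 CPM in DMSO, 26, 15.6, 8.76 and 13.1 CPM in LPS and 10.3, 7.27, 4.68 and 3.27 CPM in LPS+TM7nox. The LPS libraries lay below every DMSO library, and the log2 fold change was -1.62 (SE 0.336, adjusted p = 0.00142), 3.07-fold lower. Birc5, or survivin, which anchors the complex at the centromere, stood at 46.8, 72, 72.8 and 66.9 CPM in DMSO, 28.9, 28.2, 16.2 and 21.6 CPM in LPS and 16.1, 16.6, 8.16 and 9.14 CPM in LPS+TM7nox. Here too the DMSO and LPS libraries were apart, at -1.48 (SE 0.251, adjusted p = 0.000288). Incenp, the scaffold, had the smallest change of the complex at -0.83 (SE 0.156, adjusted p = 0.000658), and Cdca8, or borealin, a value of -1.37.

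Of the 6 genes of the spindle checkpoint and its target, 5 fell. Bub1b, which encodes the checkpoint protein BubR1, stood at 137, 121, 127 and 139 CPM in DMSO, 58.3, 48.6, 33 and 47.6 CPM in LPS and 49.6, 40, 40.4 and 38 CPM in LPS+TM7nox. Its groups did not overlap and its change was among the best determined, -1.52 (SE 0.161, adjusted p = 4.22e-06), 2.86-fold lower. Cdc20, the activator of the anaphase-promoting complex that the checkpoint restrains, stood at 44.1, 45.4, 49.7 and 47.9 CPM in DMSO, 22.9, 19.3, 11.4 and 17.4 CPM in LPS and 16, 14.1, 11.3 and 8.46 CPM in LPS+TM7nox. Its log2 fold change was -1.43 (SE 0.217, adjusted p = 0.00011), with no overlap. The kinase genes Ttk and Bub1 had values of -1.9 and -1.22, and Mad2l1, the inhibitor of Cdc20, of -1.46. Bub3, the partner of Bub1 and BubR1, stood apart at 84.5, 77.2, 76.4 and 68.4 CPM in DMSO and 70.8, 63.8, 63.9 and 57.1 CPM in LPS. Its value of -0.29 (SE 0.121, adjusted p = 0.0655) was not called, although with the replicate number as a block the adjusted p was 0.00476, and it was also called without RNA LPS replicate 1 or without RNA DMSO replicate 4.

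At the centromere and kinetochore, 7 of 8 members fell, with a median log2 fold change of -1.54. Cenpa, the histone H3 variant that marks centromeres, stood at 68.4, 56.8, 46.9 and 46.9 CPM in DMSO, 24.3, 27.8, 18.4 and 19.9 CPM in LPS and 22, 18.1, 10.1 and 9.56 CPM in LPS+TM7nox. The LPS libraries were all lower than the DMSO libraries (-1.31 (SE 0.258, adjusted p = 0.00096)). Ndc80, which binds microtubule ends, stood at 36.7, 36.4, 30 and 31.1 CPM in DMSO, 16.4, 12.9, 8.86 and 10.3 CPM in LPS and 16.6, 16.5, 7.34 and 6.03 CPM in LPS+TM7nox. Its log2 fold change with LPS was -1.5 (SE 0.306, adjusted p = 0.00126), and LPS+TM7nox replicates 1 and 2 were as high as LPS replicate 1. Sgo1, shugoshin, the protector of centromeric cohesin, stood at 22.7, 14.1, 12.4 and 12.6 CPM in DMSO and 6.37, 4.25, 2.64 and 2.59 CPM in LPS. It had the third largest fall of all members, -1.97 (SE 0.379, adjusted p = 0.000771). Nuf2 and Spc25, which form a complex with Ndc80, had values of -1.8 and -1.59, and the large kinetochore proteins Cenpf and Cenpe of -1.57 and -0.89. Spc24, of the same complex as Ndc80, was not called at -0.64 (SE 0.317, adjusted p = 0.125). Its 4 DMSO libraries stood at 37.7, 26.4, 27.7 and 27.9 CPM and its LPS libraries at 32.7, 14.9, 14 and 16.4 CPM, where replicate 1 of LPS lay within the DMSO range. With the replicate block its adjusted p was 0.000436, and it was also called without RNA LPS replicate 1.

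The 4 spindle motors and spindle proteins and the 6 genes of the central spindle and cytokinesis all fell, with medians of -1.53 and -1.55. Kif11, the motor that pushes spindle poles apart, stood at 116, 111, 107 and 99.5 CPM in DMSO, 43.1, 35.7, 15.7 and 22.3 CPM in LPS and 24.4, 21, 7.85 and 7.61 CPM in LPS+TM7nox. The LPS libraries were well below the DMSO libraries (-1.92 (SE 0.382, adjusted p = 0.00102)). Kif23, a subunit of centralspindlin, stood at 82.6, 82.7, 62 and 67.9 CPM in DMSO, 40.5, 32.3, 14.9 and 18.8 CPM in LPS and 17.2, 21, 9.55 and 9.43 CPM in LPS+TM7nox. Its fall was -1.5 (SE 0.322, adjusted p = 0.00181), without overlap. Anln, anillin, the scaffold of the contractile ring, stood at 80.7, 105, 85.9 and 90 CPM in DMSO, 29.8, 30.4, 13.2 and 19.2 CPM in LPS and 15.6, 15.2, 8.95 and 7.69 CPM in LPS+TM7nox. It had the second largest fall, -2 (SE 0.277, adjusted p = 5.16e-05), 3.99-fold lower, and every LPS library was under the lowest DMSO library. Ect2, the RhoA exchange factor of cytokinesis, had a log2 fold change of -1.57 (SE 0.196, adjusted p = 2.05e-05). Racgap1, the partner of Kif23, Prc1, which bundles midzone microtubules, and the midzone kinesin Kif20a had values of -1.53, -1.46 and -1.59. The depolymerising kinesin Kif2c, the chromokinesin Kif4 and the spindle protein Hmmr had values of -1.68, -1.38 and -1.25. All 6 of these fell without overlap between DMSO and LPS.

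The 3 anaphase genes went different ways. Espl1, separase, the protease that cuts cohesin, stood at 43.6, 37.2, 41.7 and 41.5 CPM in DMSO, 11.8, 10.4, 4.77 and 7.39 CPM in LPS and 5.98, 4.7, 3.13 and 2.34 CPM in LPS+TM7nox. Its fall with LPS was the largest of the 40, -2.28 (SE 0.294, adjusted p = 2.64e-05), 4.87-fold lower. No DMSO library overlapped those of LPS or LPS+TM7nox. Pttg1, securin, the inhibitor that holds separase until anaphase, stood at 19.5, 17.6, 13 and 13.3 CPM in DMSO, 24.8, 21, 17.3 and 19.7 CPM in LPS and 18.5, 16, 14.4 and 14.4 CPM in LPS+TM7nox. It was the only member with a positive value, 0.37 (SE 0.173, adjusted p = 0.103), and was not called. It was called with the replicate number as a block (adjusted p = 0.00946), without RNA DMSO replicate 1, and over replicates 3 and 4 alone. Ube2c, the E2 enzyme of the anaphase-promoting complex, stood at 218, 129, 107 and 87.3 CPM in DMSO, 102, 91.5, 53.2 and 57.5 CPM in LPS and 47.3, 50.7, 27.6 and 22.2 CPM in LPS+TM7nox. It missed the threshold at -0.87 (SE 0.336, adjusted p = 0.0521) and passed it with the block, at an adjusted p of 0.0002.

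Both genes of mitotic chromosomes fell with LPS. Mki67, the Ki-67 protein that coats mitotic chromosomes and marks dividing cells, stood at 898, 830, 733 and 717 CPM in DMSO, 342, 264, 112 and 124 CPM in LPS and 171, 167, 75.5 and 64.3 CPM in LPS+TM7nox. The LPS libraries of replicates 3 and 4 were lower than those of replicates 1 and 2, and all 4 were below DMSO (-1.94 (SE 0.388, adjusted p = 0.00104), 3.85-fold lower). Top2a, the topoisomerase that untangles sister chromatids, stood at 224, 296, 265 and 297 CPM in DMSO, 124, 140, 79.6 and 104 CPM in LPS and 81.6, 96.7, 54.7 and 45.8 CPM in LPS+TM7nox. Its log2 fold change with LPS was -1.30 (SE 0.227, adjusted p = 0.000354). Per kilobase of annotated exon, the DMSO level was highest in Mki67 (77.4 CPM per kb), followed by Ube2c (41.7), Top2a (29.7), Bub1b (28.4) and Tpx2 (26.7), and lowest in Cdc25c (1.77).

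**Figure D2:**
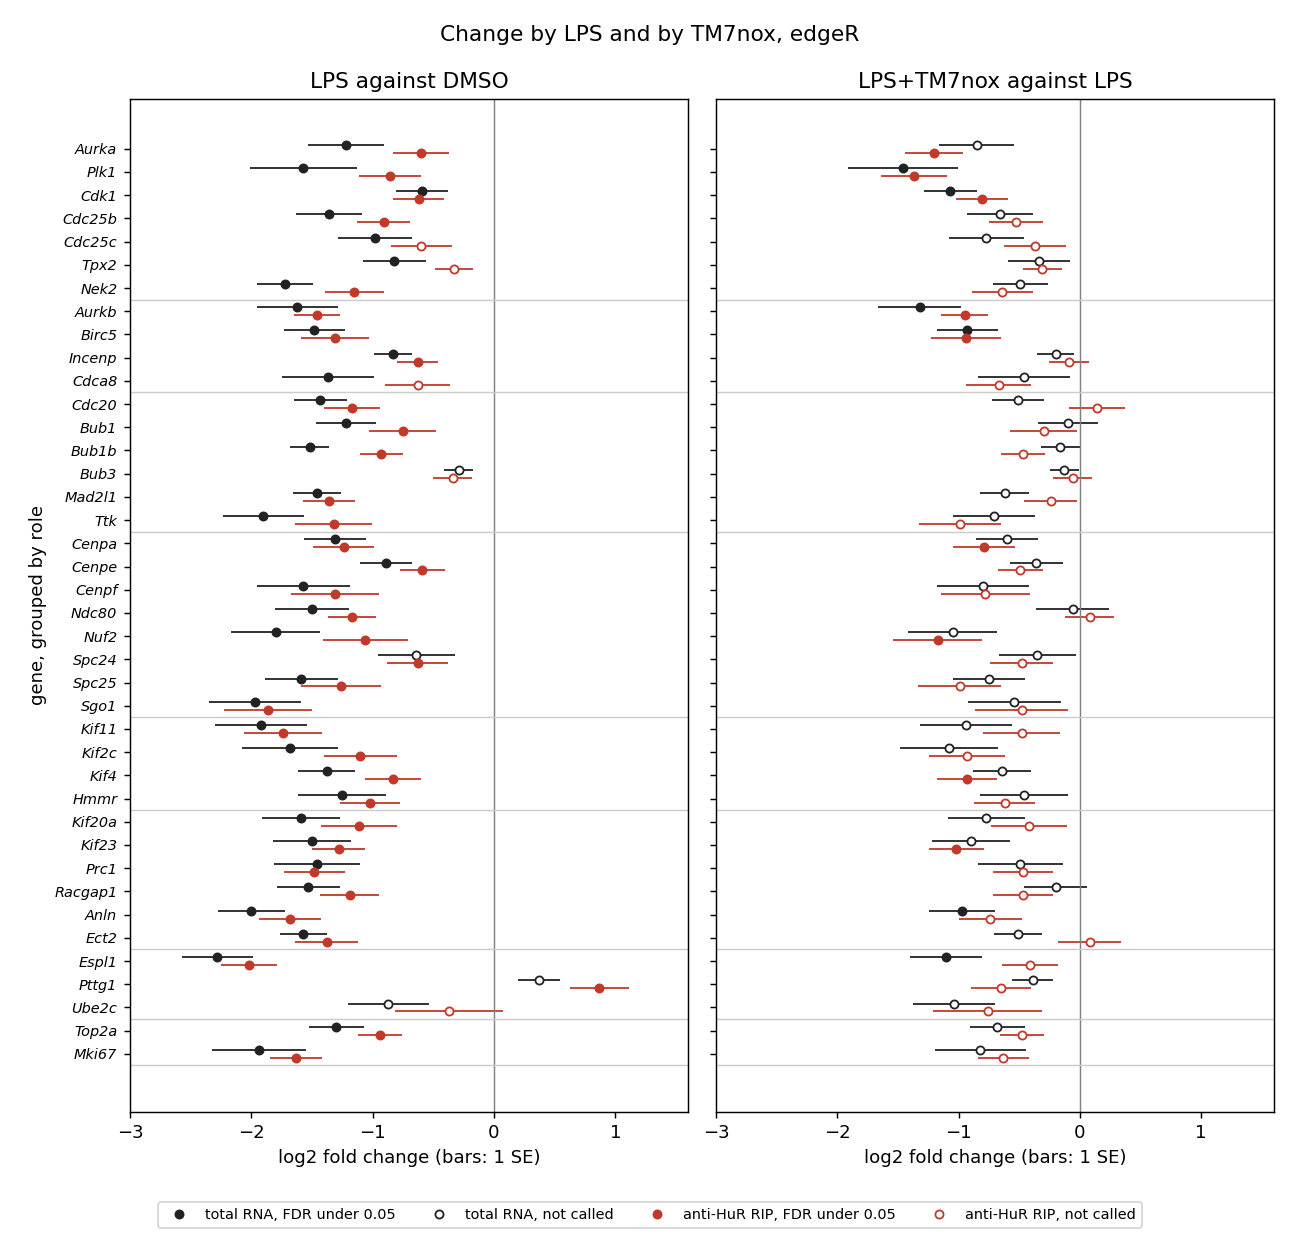
Each row is 1 of the 40 genes, with the log2 fold change (x axis, bars 1 SE) of LPS over DMSO on the left and of LPS+TM7nox over LPS on the right, for total RNA in black and anti-HuR RIP in red. Filled points passed an adjusted p under 0.05; nearly all points on the left are filled and negative, and on the right most are negative and 6 of the RNA and 9 of the RIP points are filled.

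Adding TM7nox to LPS gave lower values in all 40 members, of which 6 passed the test: Plk1, Aurkb, Espl1, Cdk1, Anln and Birc5. No member was higher. Of all genes tested, 6.4% were called lower and 7.37% higher in this comparison. The median of the members was -0.65, while the median of all genes was 0. At an unadjusted p under 0.05 there were 24 members, against 26.3% of all genes. The numbers pair the libraries, and with the replicate number as a block 27 members were called lower, where 12.7% of all genes were. The count rested on single libraries: it was 1 without LPS replicate 1 or LPS+TM7nox replicate 3 or 4, 2 without LPS replicate 2, and 12 without LPS+TM7nox replicate 1 or LPS replicate 3. Over replicates 1 and 2 alone it was 0 and over replicates 3 and 4 alone 32, with medians of -0.54 and -0.82. The share of all genes called lower was 3.95% to 6.17% leaving out each library, 0.561% over replicates 1 and 2 and 13.5% over replicates 3 and 4.

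The LPS and LPS+TM7nox libraries did not overlap in 2 members, Cdk1 and Ube2c, against 21.8% of all genes. Of these only Cdk1 was called. Its values given above fell in every same-numbered pair, by a log2 fold change of -1.07 (SE 0.218, adjusted p = 0.00488), or 2.09-fold, and 13 of 14 alternatives kept the call. Plk1 changed by -1.46 (SE 0.453, adjusted p = 0.0467), 2.75-fold lower, and Aurkb by -1.32 (SE 0.342, adjusted p = 0.0195), 2.49-fold lower. Both were lower in all 4 same-numbered pairs, but their groups overlapped, and 7 and 10 of 14 alternatives kept their calls. Espl1, Anln and Birc5 had values of -1.1 (SE 0.297, adjusted p = 0.0246), -0.97 (SE 0.274, adjusted p = 0.0305) and -0.93 (SE 0.251, adjusted p = 0.0248), each called in 9 of 14 alternatives. Each of these 5 lost its call without RNA LPS replicate 1 or without LPS+TM7nox replicate 3 or 4. Ube2c, whose groups did not overlap, missed the threshold at -1.04 (SE 0.337, adjusted p = 0.0563), and with the block its adjusted p was 0.000136.

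The checkpoint and kinetochore genes had none called with TM7nox. Bub1b was -0.16 (SE 0.158, adjusted p = 0.592) and Ndc80 -0.06 (SE 0.303, adjusted p = 0.931), the latter the smallest value of the 40. Cdc20 had a value of -0.51 (SE 0.215, adjusted p = 0.149), and Cenpa of -0.6 (SE 0.257, adjusted p = 0.154). With the replicate block, 2 of the 6 checkpoint genes and 5 of the 8 kinetochore genes were called, Cenpa among them at an adjusted p of 0.00427. Among the motors, cytokinesis and chromosome genes, Kif11, Kif23, Top2a and Mki67 had adjusted p-values of 0.125, 0.0826, 0.0617 and 0.184, which became 0.00812, 0.00197, 0.00896 and 0.0108 with the block. Their log2 fold changes were -0.94, -0.90, -0.68 and -0.82.

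Against DMSO, LPS+TM7nox lowered 39 of the 40 members, where 23.6% of all genes were called lower and 23.7% higher. The median was -2.02, and the DMSO and LPS+TM7nox libraries did not overlap in 39 members, as in 41.8% of all genes. With the replicate block 39 were called lower, against 28.6% of all genes. Espl1 was 10.4-fold lower (log2 fold change -3.38 (SE 0.312, adjusted p = 9.58e-07)), Plk1 8.16-fold (-3.03 (SE 0.473, adjusted p = 0.000115)) and Anln 7.79-fold (-2.96 (SE 0.289, adjusted p = 1.62e-06)). Pttg1 was the member not called, at -0.02 (SE 0.174, adjusted p = 0.949). This comparison shares its DMSO libraries with the first and its LPS+TM7nox libraries with the second.

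In 6 lists of related genes, more genes fell than rose with LPS, where 21.7% of all genes were called lower and 20.2% higher. Of 23 regulators of G2/M transcription, 10 fell and 1 rose, and the median was -0.38. Foxm1, the transcription factor of late G2 genes, was at 103 ± 4.26 CPM (SD, n = 4) in DMSO, 29.6 ± 9.95 CPM in LPS and 15.0 ± 5.62 CPM in LPS+TM7nox. Its fall passed the test in both steps (-1.83, SE 0.269, adjusted p = 8.49e-05 with LPS, and -0.98, SE 0.266, adjusted p = 0.0252 with TM7nox). Mybl2, or B-Myb, fell by 2.17 on the log2 scale with LPS (SE 0.326, adjusted p = 0.000104). Cdkn1a, the p21 inhibitor of cyclin-dependent kinases, was the regulator that rose (1.30, SE 0.121, adjusted p = 1.19e-06). Among 35 further kinetochore and centromere genes 27 fell and 1 rose, Zwint (0.74, adjusted p = 0.000157), which is known as an outer kinetochore protein. Among 39 further spindle and centrosome genes tested 33 fell and 1 rose, Sass6, and among 17 of cohesin and condensin 13 fell and 2 rose. Of 17 subunits and regulators of the anaphase-promoting complex 4 fell and 1 rose, a share of falls near that of all genes. Fbxo5, or Emi1, its inhibitor, had the values -2.47 (adjusted p = 5.19e-05) with LPS and -1.62 (adjusted p = 0.00868) with TM7nox. Of 20 S phase markers, 18 fell with LPS, and 7 with TM7nox. With TM7nox, the counts of genes that fell in the other lists were 4 of 23 regulators, 4 of 35 kinetochore genes, 2 of 17 of the anaphase-promoting complex, 1 of 17 of cohesin and condensin and 7 of 39 spindle genes, where 6.4% of all genes were called lower. Those that rose were Zwint and Spdl1, both of kinetochores, and Anapc16 of the anaphase-promoting complex. All counts for these lists were made without the replicate block.

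In the anti-HuR libraries, LPS lowered 34 members and raised 1, where 21.2% of all 13614 genes tested were called lower and 23.5% higher. The median was -1.10, against 0 for all genes, and the libraries of both treatments did not overlap in 34 members, as in 41.6% of all genes. The members took 0.225% ± 0.0358 (SD, n = 4) of the RIP counts in DMSO, 0.0838% ± 0.0238 in LPS and 0.0557% ± 0.0214 in LPS+TM7nox. In RIP, Espl1 stood at 28.8, 28.2, 29.8 and 32.4 CPM in DMSO, 8.19, 6.41, 5.75 and 9.5 CPM in LPS and 6.92, 6.23, 3.43 and 6.66 CPM in LPS+TM7nox, with a log2 fold change by LPS of -2.02 (SE 0.228, adjusted p = 3.28e-06). Kif11 stood at 63.4, 63, 63.1 and 48.3 CPM in DMSO and 26.2, 20.7, 11.8 and 13 CPM in LPS (-1.74 (SE 0.321, adjusted p = 0.000389)). Anln stood at 32.8, 42.9, 35.1 and 28.6 and 11.9, 13.6, 7.77 and 10.9 CPM (-1.68 (SE 0.256, adjusted p = 6.98e-05)). In these 3 genes every LPS library was below every DMSO library. Pttg1, securin, was the member that rose, standing at 4.81, 4.03, 2.91 and 3.16 CPM in DMSO, 7.77, 5.78, 6.83 and 7.3 CPM in LPS and 6.03, 3.52, 5.43 and 2.97 CPM in LPS+TM7nox. Its LPS libraries were all above its DMSO libraries (0.87 (SE 0.245, adjusted p = 0.00913), 1.82-fold higher), and 13 of 14 alternatives kept the call. The 5 members not called were Ube2c, Cdc25c, Cdca8, Bub3 and Tpx2, with values between -0.63 and -0.33, and with the replicate block all 40 were called, 39 of them lower, where 28.6% of all genes were called lower.

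With TM7nox, 9 members were lower in RIP than with LPS alone and none was higher, against 7.61% and 8.64% of all genes. The median was -0.58, against -0.03 for all genes, and 37 of the 40 values were negative. The libraries of LPS and LPS+TM7nox did not overlap in 5 members, against 18.7% of all genes. Plk1 stood at 12.5, 8.26, 10.7 and 10.9 CPM in DMSO, 6.48, 5.41, 4.87 and 6.78 CPM in LPS and 3.69, 2.57, 1.64 and 1.35 CPM in LPS+TM7nox in RIP. Its change was -1.37 (SE 0.273, adjusted p = 0.00319), 2.58-fold lower, with no overlap. Aurka stood at 22.9, 20.4, 18.5 and 16.1 CPM in DMSO, 16, 13.1, 12 and 11 CPM in LPS and 8.32, 6.23, 5.35 and 3.24 CPM in LPS+TM7nox and changed by -1.2 (SE 0.238, adjusted p = 0.00298). Kif23 stood at 26.4, 30.8, 28.3 and 23.6 CPM in DMSO, 15.1, 11.2, 9.53 and 9.56 CPM in LPS and 7.85, 6.17, 5.35 and 3.69 CPM in LPS+TM7nox and changed by -1.02 (SE 0.226, adjusted p = 0.00616). For Aurka and Kif23 the groups did not overlap and all 14 alternatives kept the call. In Plk1, Aurka and Kif23 all 4 RIP libraries lay below the IgG library of each treatment. From LPS to LPS+TM7nox the IgG level went from 10.5 to 4.9 CPM in Plk1 and from 22.3 to 13.8 CPM in Aurka. In Kif23 it went from 23.4 to 16.8 CPM, with 1 library each and no test. The other 6 members called were Aurkb (-0.95, adjusted p = 0.00355), Birc5, Cdk1, Cenpa, Nuf2 and Kif4. Aurkb, Birc5, Cdk1 and Plk1 were thus called in both assays. Cdc20, Ect2 and Ndc80 were the positive values, at 0.14, 0.08 and 0.08, and none was called. With the replicate block 27 members were called lower, where 17.0% of all genes were. The count was 4 without LPS replicate 1 or LPS+TM7nox replicate 4, 14 without LPS replicate 3 and 20 without LPS+TM7nox replicate 1, and 3 over replicates 1 and 2 alone. The share of all genes called lower was 4.7% to 7.23% leaving out each library and 2.29% over replicates 1 and 2.

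Recovery with anti-HuR over total RNA was compared within each treatment. It is relative to the typical gene, since scaling sets the bulk of genes equal between the assays. In DMSO, 29 members were lower in RIP than in RNA and 4 were higher, where 33.4% of all 14311 genes were called lower and 37.0% higher. The median log2 ratio was -1.19, against 0.04 for all genes. In LPS the counts were 26 lower and 4 higher (all genes 30.8% and 32.9%), with a median of -0.93, and in LPS+TM7nox 27 lower and 5 higher (34.8% and 35.2%), with a median of -0.92. With the replicate number as a block, 31 members were lower and 5 higher in DMSO, 30 and 5 in LPS and 28 and 5 in LPS+TM7nox. The shares of all genes lower and higher with the block were 35.9% and 39.0% in DMSO, 34.1% and 34.9% in LPS and 37.4% and 36.9% in LPS+TM7nox. Size factors computed as in DESeq2 moved the median of all genes in DMSO from 0.04 to 0.19, and that of the members to -1.06. In LPS+TM7nox it moved the median of all genes from -0.09 to 0.13 and that of the members to -0.71. Most mitotic mRNAs were thus recovered less than the typical mRNA, and a few far more.

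**Figure D3:**
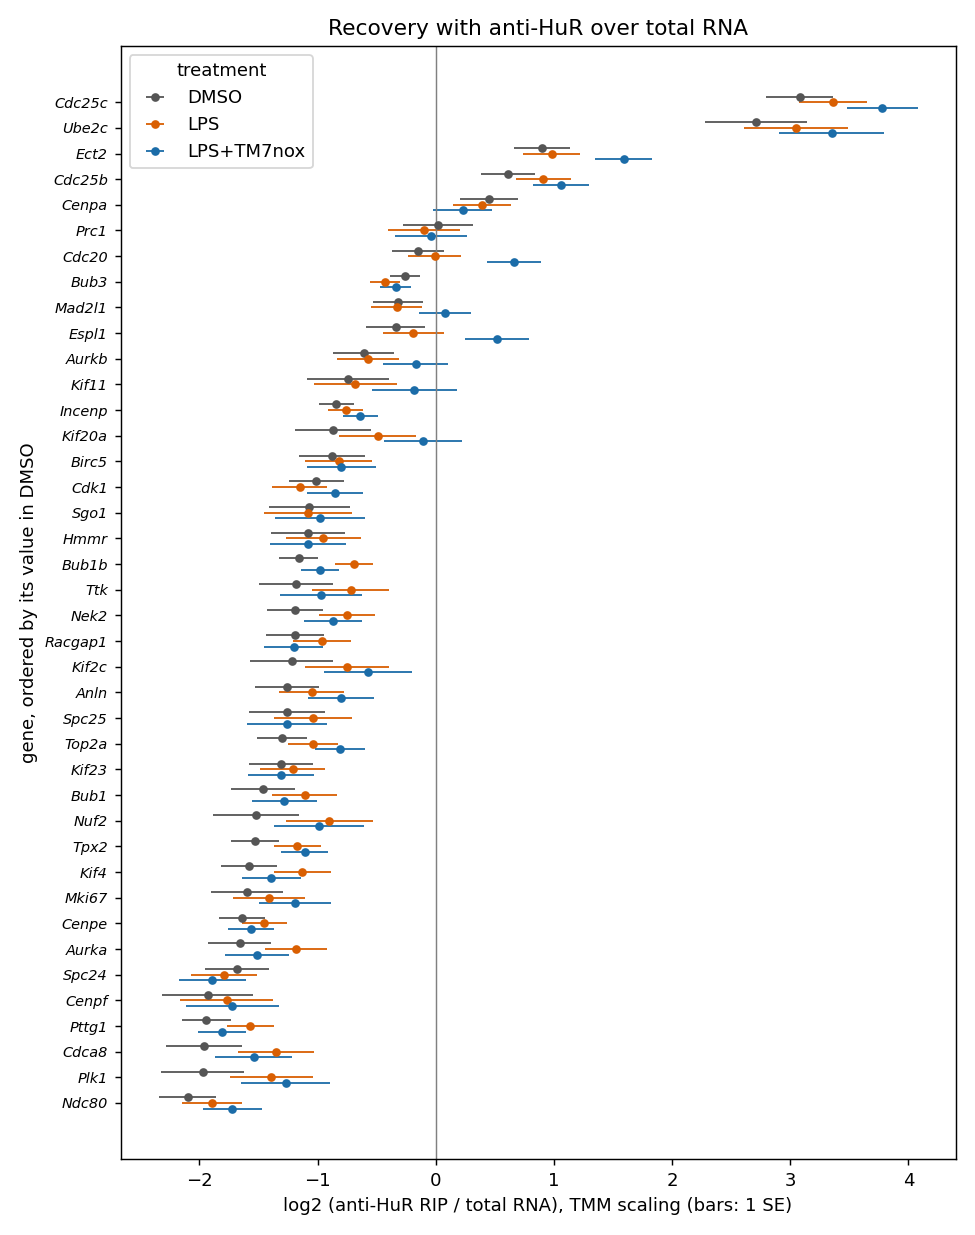
The log2 ratio of anti-HuR RIP to total RNA (x axis, bars 1 SE) is plotted for each gene in DMSO, LPS and LPS+TM7nox, ordered by its value in DMSO. Cdc25c and Ube2c stand apart on the right, at 3.08 and 2.71 in DMSO, and Ndc80 is at the other end, at -2.10.

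Cdc25c, the phosphatase that switches on Cdk1, was the member most enriched. In total RNA it stood at 12.9, 10.4, 9.84 and 9.73 CPM in DMSO, 7.87, 5.93, 3.57 and 4.55 CPM in LPS and 3.98, 4.66, 2.31 and 1.87 CPM in LPS+TM7nox. In RIP it stood at 89.6, 89.1, 86.7 and 65.3 CPM in DMSO, 57.2, 69.8, 57.7 and 37.5 CPM in LPS and 43.9, 69, 27.3 and 36.8 CPM in LPS+TM7nox, and in the IgG libraries at 10.6, 4.6 and 3.61 CPM. Every RIP library was thus above all RNA and IgG libraries. The log2 ratio of RIP to RNA was 3.08 (SE 0.284, adjusted p = 5.87e-10) in DMSO, 3.36 in LPS and 3.78 in LPS+TM7nox, which are 8.48-, 10.2- and 13.7-fold. Ube2c was next. Its RIP libraries stood at 1050, 864, 865 and 394 CPM in DMSO, 735, 1009, 546 and 203 CPM in LPS and 511, 569, 296 and 144 CPM in LPS+TM7nox, and its IgG libraries at 64.3, 37.8 and 17.0 CPM. The RIP libraries were all above the RNA libraries of their treatment, with replicate 4 the lowest in each treatment. The log2 ratio was 2.71 (SE 0.434, adjusted p = 5.44e-06) in DMSO, 3.05 in LPS and 3.35 in LPS+TM7nox, or 6.52-, 8.30- and 10.2-fold.

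Ect2 and Cdc25b were higher in RIP to a smaller degree. Ect2, a cytokinesis factor, stood at 81.6, 78.9, 86.8 and 62.2 CPM in DMSO, 40, 35.6, 23.5 and 21.3 CPM in LPS and 43.6, 42.2, 25.6 and 20.3 CPM in LPS+TM7nox in RIP and at 44.7, 45.6, 46.4 and 42.3 CPM in DMSO, 17.4, 18.5, 12.6 and 13.2 CPM in LPS and 12.1, 14.6, 8.98 and 7.69 CPM in LPS+TM7nox in total RNA, and its log2 ratio was 0.9 (SE 0.235, adjusted p = 0.00143) in DMSO, 0.98 in LPS and 1.59 in LPS+TM7nox. Cdc25b, the phosphatase that acts on Cdk1 at the centrosome, had ratios of 0.61 (SE 0.229, adjusted p = 0.021), 0.91 and 1.06, and 7 of 14 alternatives kept its call in DMSO. Cdc20 passed the test in LPS+TM7nox alone (0.66 (SE 0.228, adjusted p = 0.0127)). The change of its ratio between LPS and LPS+TM7nox was 0.67 (SE 0.32, unadjusted p = 0.047, adjusted p = 0.871). Cenpa was not called in DMSO (0.45, adjusted p = 0.102), and with the block its adjusted p was 0.00752.

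At the other end were kinetochore and securin mRNAs. Ndc80 stood at 6.8, 7.7, 8.1 and 6.13 CPM in DMSO, 3.93, 3.47, 2.74 and 2.72 CPM in LPS and 3.91, 3.12, 3.51 and 3.51 CPM in LPS+TM7nox in RIP, below the RNA libraries of each treatment. Its log2 ratio was -2.1 (SE 0.245, adjusted p = 3.91e-08) in DMSO, or 4.28-fold lower, -1.89 in LPS and -1.72 in LPS+TM7nox. Spc24, of the same complex, had ratios of -1.68, -1.79 and -1.89, and Pttg1 of -1.94, -1.57 and -1.81. Of the 8 centromere and kinetochore genes 7 were called lower in every treatment, the exception being Cenpa. Plk1 was 3.92-fold lower in DMSO (-1.97 (SE 0.352, adjusted p = 2.28e-05)), with ratios of -1.39 and -1.27 after LPS and LPS+TM7nox. Cdca8, the passenger protein borealin, was at -1.96 (SE 0.321, adjusted p = 7.06e-06) in DMSO, and Cenpf, a kinetochore protein, at -1.77 (SE 0.39, adjusted p = 0.000324) in LPS.

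The same recovery is given here for the lists of related genes. In DMSO, 12 of the 23 regulators of G2/M transcription were higher in RIP than in RNA and 3 lower, with a median log2 ratio of 0.63, where the members' median was -1.19. Among all genes 37.0% were called higher and 33.4% lower. Of the 35 further kinetochore and centromere genes 6 were higher and 15 lower, and of 17 genes of the anaphase-promoting complex 1 and 11. Of 17 genes of cohesin and condensin the counts were 3 and 13, of 40 further spindle and centrosome genes 7 and 18, and of 20 S phase markers 2 and 13. The medians of these lists were -0.49, -0.75, -1.22, -0.63 and -1.24, in the same order. Knl1, the kinetochore scaffold to which the complex of Ndc80 attaches, was at 68.6 ± 9.33 CPM (SD, n = 4) in RNA, 228 ± 36 CPM in RIP and 75.1 CPM with IgG in DMSO, a log2 ratio of RIP to RNA of 1.84 (SE 0.309, adjusted p = 1.01e-05). Foxm1 had a ratio of -0.18 (SE 0.244, adjusted p = 0.519).

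**Figure D4:**
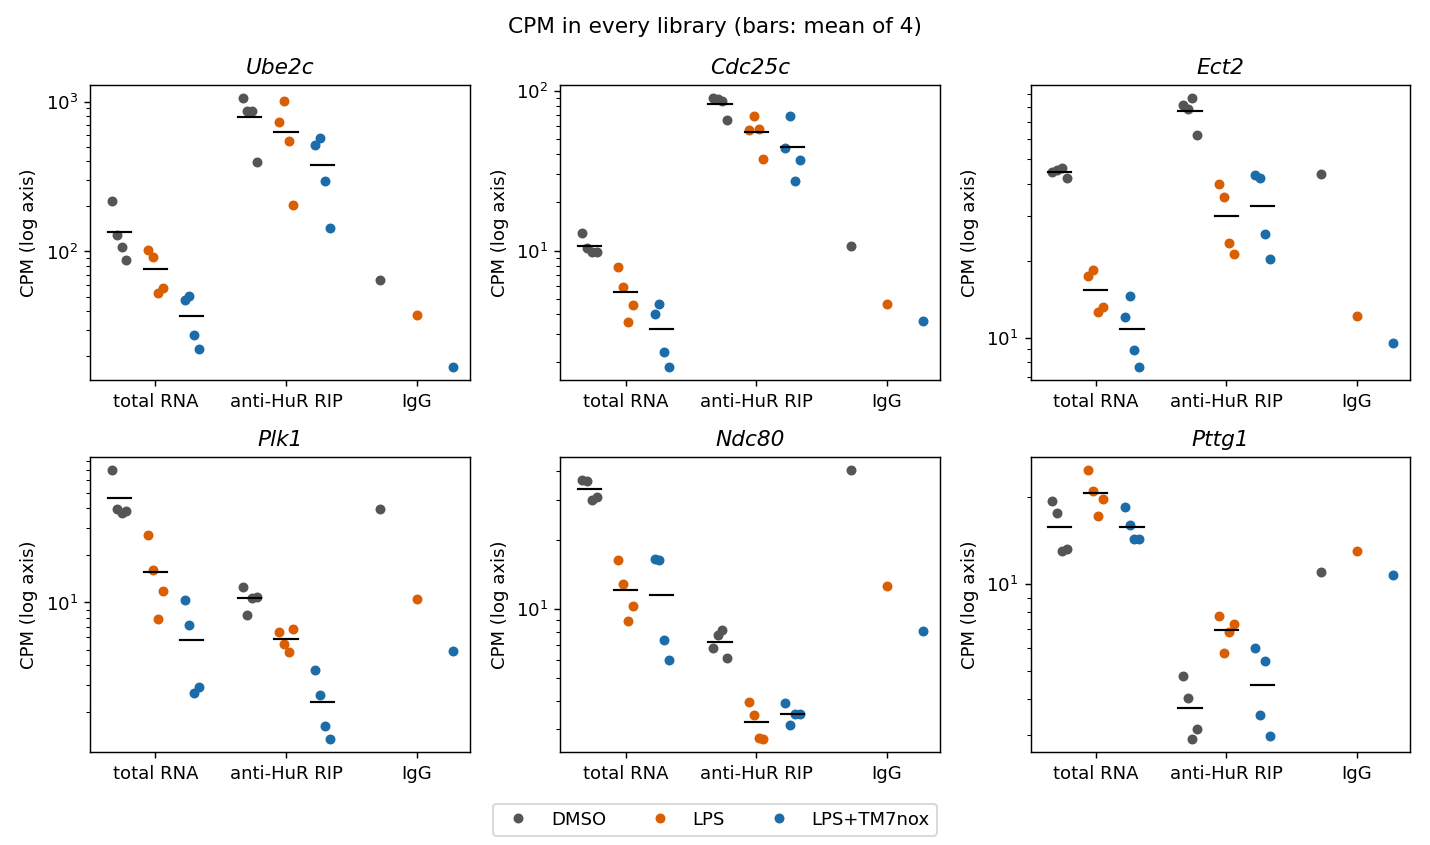
CPM on a log axis in every library is plotted for Ube2c, Cdc25c, Ect2, Plk1, Ndc80 and Pttg1, by assay (total RNA, anti-HuR RIP, IgG) and treatment, with bars at the mean of 4 libraries. The RIP points of Ube2c, Cdc25c and Ect2 are above the RNA points in all treatments, while those of Ndc80 and Pttg1 are below and those of Plk1 are below except in LPS+TM7nox, where they overlap. In RIP the LPS points of Pttg1 are above its DMSO points.

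No member was called in the test of whether a treatment changed its recovery. For LPS, 0 members were called by edgeR, against 0.0419% of all genes, 0 by DESeq2, against 0.433%, and 0 with the replicate block, against 0.349%. In edgeR 0 members had an unadjusted p under 0.05, against 7.27% of all genes. The differences ran from -0.17 to 0.62, with a median of 0.21 against 0.02 for all genes, and 33 of 40 were positive. With the replicate block, 4 members had an unadjusted p under 0.05, against 12.3% of all genes. For TM7nox, 0 were called by edgeR, against 0.00699% of all genes, 0 by DESeq2, against 0.021%, and 0 with the block, against 0.014%. In edgeR 1 member, Cdc20, had an unadjusted p under 0.05, against 5.39% of all genes. With the block 3 members had one, against 11.2%. The differences by TM7nox ran from -0.34 to 0.71. Plk1, at 0.58 (SE 0.489, unadjusted p = 0.249), and Cdc25c, at 0.27 (SE 0.375), were among those not called for LPS.

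Against control IgG, with treatment as a covariate, 5 members were higher with anti-HuR and 26 lower, where 33.8% of 14973 genes were called higher and 34.2% lower. The median was -0.87. Ube2c was 16-fold higher (4 (SE 0.511, adjusted p = 1e-06)) and Cdc25c 10.1-fold (3.33 (SE 0.287, adjusted p = 4.99e-09)), followed by Ect2 (1.24 (SE 0.258, adjusted p = 0.000288)), Cenpa (1.04 (SE 0.237, adjusted p = 0.000674)) and Cdc25b (0.98 (SE 0.208, adjusted p = 0.000353)). These same 5 were the members whose 4 RIP libraries lay above the IgG library in all 3 treatments, and 18 members lay below it in all 3. Among all genes 28.7% lay above it in all 3 and 29.5% below. Cenpe, the kinetochore kinesin, was at 210, 119 and 94.2 CPM with IgG and 4.56-fold lower with anti-HuR (-2.19 (SE 0.142, adjusted p = 1.41e-10)). Pttg1 was at 11, 13 and 10.8 CPM with IgG (-1.26 (SE 0.195, adjusted p = 1.06e-05)), and Tpx2 at 117, 57.3 and 48.0 CPM (-1.11 (SE 0.145, adjusted p = 1.24e-06)). For the other members, anti-HuR recovery was not called above that of control IgG. With the replicate block 30 members were lower and 5 higher, against 33.7% and 31.5% of all genes, and Bub3 lost its call (adjusted p = 0.139). The members took 0.654%, 0.147% and 0.107% of the IgG counts in DMSO, LPS and LPS+TM7nox, with 1 library each and no test.

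The 3′ untranslated regions of the members were read from GENCODE M39 transcripts on GRCm39, because HuR is known to bind U-rich stretches there. Stretches of 30 bases around the longest run of U (written as T, in capitals) in the canonical transcript are shown for 2 members higher in RIP and for Tpx2, which has the longest run among these 3 and is lower in RIP.
Ube2c, gene at chr2:164611768-164620742, plus strand: ttttgtgttgtcTTTTTTcttagactatct
Ect2, gene at chr3:27151371-27208029, minus strand: taactgactggaTTTTTTTctataccatgt
Tpx2, gene at chr2:152689854-152737245, plus strand: ttgaatgaaTTTTTTTTTTTTacctgcatg
In the longest annotated 3′ region, a run of 7 or more U was present in 35.0% of the members, in 53.2% of all 11131 coding genes tested, in 81.3% of those called higher in RIP and in 34.4% of those called lower. In the canonical transcript the shares were 22.5%, 47.9%, 78.6% and 27%. The median lengths of the longest regions were 926, 1882, 2658 and 1353 bases, in the same order. The part of length in these shares was not tested. The motif AUUUA, rich in A and U, was present in the longest region of 82.5%, 78.8%, 89.9% and 69.2%, in that order. The median U content was 30.3% in the members and 28.6% in all genes, and across the 40 members it had a Spearman correlation of 0.03 with the log2 ratio of RIP to RNA in DMSO, against 0.29 across all genes. These are descriptions across genes, which are not independent. Cdc25c, with the highest ratio, had a 3′ region of 450 bases with 19.3% U and no run of U longer than 3. The region of Tpx2 had a run of 12 U and a ratio of -1.53. Cdc25b, higher in RIP and not among the stretches shown, had a run of 10 U and 6 runs of 7 or more.

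Some members share exon bases with genes on the opposite strand, and whether reads were counted by strand is not given in the sources used here. Reads of Kif20a could be shared with Cdc23 over 54.8% of its exon bases, and those of Spc25 with Nostrin over 52.5%. Aurka shares 25.2% with Fam210b and 7.5% with Cstf1. In RIP, Cstf1 had means of 50.7, 29.6 and 29.0 CPM in DMSO, LPS and LPS+TM7nox, and Aurka of 19.5, 13.0 and 5.79 CPM. Kif20a also shares 6.7% with Brd8. In RIP, Brd8 had means of 85.2, 57.4 and 67.4 CPM, Cdc23 of 13.2, 9.03 and 8.48 CPM and Kif20a of 30.5, 14.2 and 10.9 CPM. Ube2c shares 19.0% with Tnnc2, which reached at most 0.299 CPM in any RNA library and 0 in RIP, and Cdc25c shares 19.0% with 2010110K18Rik, at most 1.46 CPM in RIP. Cdc25c also shares 12.4% with Rpl27rt, at most 0.694 CPM in RIP. The part of shared reads in the RIP levels of Ube2c and Cdc25c was not tested. Pttg1 shares 8.9% with Slu7, a splicing factor gene whose mean went from 48.9 CPM in DMSO to 73.4 CPM in LPS and 114 CPM in LPS+TM7nox in RNA, and from 17.6 to 32.1 and 42.8 CPM in RIP. The mean of Slu7 thus moved in the direction of that of Pttg1 with LPS and in the opposite direction from LPS to LPS+TM7nox, where Pttg1 went from 20.7 to 15.8 CPM in RNA and from 6.92 to 4.49 CPM in RIP (edgeR adjusted p = 0.166 and 0.0801, and with the replicate block 0.0158 and 0.0153). The part of Slu7 in the rise of Pttg1 in RIP was not tested.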

How the data were processed

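Total RNA, anti-HuR RIP and control IgG RNA were sequenced in 27 libraries, per the labels. The authors deposited 1 table of raw counts, whole reads per gene and library with no normalization. FastQC 0.11.9, STAR, HTSeq, DESeq2 and GRCm39 are named in the submitters' processing notes, and the sources used here do not give the annotation release, the strand setting or any molecular identifiers. Repeated PCR copies of a molecule thus count separately.

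Groups and replicate numbers came from the labels. Tests across all genes used edgeR 4.0.16 under R 4.3.3 (quasi-likelihood F tests, two-sided, TMM scaling, filterByExpr with a minimum count of 10, Benjamini-Hochberg adjustment over all genes tested, called at an adjusted p under 0.05). A fit each was made for the 12 libraries of RNA and the 12 of RIP. A joint fit of these 24 gave RIP over RNA and its changes, and IgG was compared in a fit with treatment as a covariate. The SE of a log2 fold change is its size divided by the square root of F. The edgeR fit of total RNA was tested on simulated counts for LPS against DMSO, without the block. The other fits and settings were not tested in this way. Alternatives were other scaling, no filter, DESeq2 1.42.0, a replicate block, pairs of replicates, and leaving out each library. RNA DMSO replicate 1, at 2.73 M counts, has the largest counting error.

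The replicate numbers pair the libraries by the data: same-numbered libraries deviated together, with correlations between treatments of 0.116 to 0.274 in RNA and 0.114 to 0.392 in RIP, and between RNA and RIP of the same treatment of 0.126 to 0.319, each over 12 pairs. The blocked counts of members are given for each comparison, and the blocked value of a gene described in full where it changes the call. Counts for the lists of related genes were made without the block.

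The genes, gene lists, roles and tests were chosen with earlier results of these data known. Named with values were Cdk1, Plk1, Aurkb, Birc5, Bub1b, Cdc20, Cenpa, Ndc80, Kif11, Kif23, Ube2c, Top2a and Mki67, members against the majority direction, and in each comparison the 3 members with the largest called change in each direction with a mean of at least 5 CPM and no overlap between groups. Other genes are named to illustrate a list or role and were chosen after their values were seen. Promoters came from RefSeq on GRCm38.p6, and gene coordinates and 3′ regions from GENCODE M39 on GRCm39. Figures were drawn with matplotlib 3.10.9 in Python 3.11.15.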

Additional observations from a re-analysis of the deposited data

Results flagged for a closer look

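In groups of 4 libraries, the library farthest from the others was marked where its gap to the nearest took up nearly the whole range (Dixon's criterion). Of 240 groups tested, 11 were marked, and chance marks about 1 in 20 groups. RNA DMSO replicate 1, the shallowest library, stood above the other 3 DMSO libraries in 5 genes: Plk1 at 69.3 CPM against 37.2 to 39.6, Cdc25b at 72.5 CPM against 34.8 to 35.6, Spc24 at 37.7 CPM against 26.4 to 27.9, Cdca8 at 105 CPM against 55.4 to 60.0, and Sgo1 at 22.7 CPM against 12.4 to 14.1. Spc24 was also high in RNA LPS replicate 1, at 32.7 CPM against 14.0 to 16.4.

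In RIP, replicate 4 was low in 4 genes. In DMSO these were Cdc25c at 65.3 CPM against 86.7 to 89.6 and Kif11 at 48.3 CPM against 63.0 to 63.4. In LPS+TM7nox they were Aurkb at 4.41 CPM against 5.96 to 6.11 and Cenpe at 13.8 CPM against 23.0 to 24.3. Birc5 was high in RIP LPS+TM7nox replicate 1, at 12.4 CPM against 5.04 to 5.83.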

How the results depend on the processing

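Of the alternative values for the 40 members, 6596 kept their side of the threshold, 226 passed it anew, 218 no longer did, and 0 changed sign where either value was called. The counts of called members for LPS against DMSO (29 to 40 in RNA, 28 to 40 in RIP), LPS+TM7nox against DMSO (37 to 39), RIP over RNA and IgG stayed within 1.5 times. The share of all genes called ran from 13.4% to 58.7% for LPS against DMSO in RNA, 16.5% to 59.3% in RIP, 18.0% to 63.3% for LPS+TM7nox against DMSO, 24.3% to 74.9% for RIP over RNA and 27.3% to 69.4% for IgG.

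The counts for LPS+TM7nox against LPS did not. In RNA, 6 members called became 23 with no low-count filter, 14 with DESeq2, 27 with the replicate block, 0 over replicates 1 and 2 and 32 over replicates 3 and 4, and 1 to 12 leaving out each library. In RIP, 9 became 17 with no filter, 14 with DESeq2, 27 with the replicate block, 3 over replicates 1 and 2, and 4 to 20 leaving out each library. The share of all genes called lower was 2.91% in RNA and 3.18% in RIP with no filter, and 9.43% and 10.1% with DESeq2. The cause was not tested. The block changed no other count by over 1.5 times. The count of members with a CHR element fell from 28 to 10 in the shorter window, which leaves out the bases after the start site and those farthest before it. Leaving only replicates 3 and 4 in the IgG fit, chosen after seeing the data, called 34 members in place of 31, where 69.4% of all genes were called. Depth limits most the values of RNA DMSO replicate 1 and of genes at a few CPM.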
